A study of Mus musculus with 8 samples.

Results

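Ugcg, Gba2, B4galt1 and Nsmaf encode proteins that act on ceramide and on the sugar-carrying lipids built from it, and their transcript levels were compared between SostPB/- and Sost-/- mouse livers. The 4 genes were taken by symbol from the 55416 rows of the deposited count table, of which 10020 were tested. The choice kept to rows where names were taken to fit the counts, with the name of the Ugcg row less certain. It was made with earlier results known. Poly-A RNA was sequenced from 8 livers. The replicates are labelled biological and were taken as 1 library per mouse: 4 SostPB/- and 4 Sost-/-, all fed the MCD diet. In its usual sense MCD means deficient in methionine and choline, a diet used to bring on steatohepatitis. Every mouse therefore carried a Sost- allele and received the diet, and the groups differed in the second allele, SostPB against a further Sost-. The labels give neither the meaning of PB nor the age, sex or strain of the mice. The product of Sost is sclerostin, which is secreted and blocks Wnt receptors, and the stated question is how its overexpression bears on steatohepatitis; the labels do not say which genotype overexpresses it.

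Ceramide is the branch point of sphingolipid metabolism. It can be capped with glucose to give glucosylceramide, which is extended with galactose and sialic acid to lactosylceramide and gangliosides, or it can be released again when glucosylceramide or sphingomyelin is broken down. In liver, ceramide accumulates when fat is overloaded and is known for dampening insulin signalling. Ugcg is glucosylceramide synthase, the entry step of glycosphingolipid synthesis. Gba2 is the non-lysosomal glucosylceramidase, which takes the glucose off again and also acts on glucosides of bile acids. B4galt1 is a Golgi galactosyltransferase that works mainly on N-glycans and is one of several related enzymes able to add galactose, with B4galt5 and B4galt6 as the principal lactosylceramide synthases. Nsmaf, also called FAN, is an adaptor that couples the TNF receptor to neutral sphingomyelinase, which makes ceramide from sphingomyelin.

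For 0 of the 4 genes did the difference between SostPB/- and Sost-/- livers pass an adjusted p of 0.05 in edgeR's quasi-likelihood test, as for 0% of the 10020 rows tested. The groups overlapped in all 4 genes; over all tested rows the groups were apart in 3.92%, with SostPB/- higher in 1.74% and lower in 2.19%. The 95% intervals of the fold changes spanned 0.774 to 1.45 for Ugcg, 0.705 to 1.29 for Gba2, 0.753 to 1.25 for B4galt1 and 0.737 to 1.16 for Nsmaf, so changes inside these ranges could not be told from none with 4 mice per group. Ugcg and Gba2 varied in opposite directions across the 8 livers (r = -0.906), also with the group means removed, but r was -0.18 with library totals in place of TMM scaling. The relation no longer passed without SostPB/- replicate 2, without SostPB/- replicate 4 or without the 2 deepest libraries. It also rests on the Ugcg row, whose name was not settled by the check given below.

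The start regions of the enzyme genes are shown because that of Gba2 lies wholly within another gene and that of Ugcg is among the richest in G and C. The RefSeq (GRCm38.p6) set used here gave a window of 300 bases, 250 before and 50 after the start, for 3 of the 4 genes. It held none for Nsmaf. Each is written 5′ to 3′ along the gene's strand, with capitals marking the GC box GGGCGG, all found here on the other strand.
Ugcg, chr4:59189300-59189599, plus strand: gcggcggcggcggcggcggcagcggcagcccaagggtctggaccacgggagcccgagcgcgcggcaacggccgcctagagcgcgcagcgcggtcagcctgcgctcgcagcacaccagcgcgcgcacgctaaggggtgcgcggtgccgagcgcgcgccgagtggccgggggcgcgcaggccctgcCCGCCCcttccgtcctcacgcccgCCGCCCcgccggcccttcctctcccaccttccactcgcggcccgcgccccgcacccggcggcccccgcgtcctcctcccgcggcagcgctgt
Gba2, chr4:43578815-43579114, minus strand: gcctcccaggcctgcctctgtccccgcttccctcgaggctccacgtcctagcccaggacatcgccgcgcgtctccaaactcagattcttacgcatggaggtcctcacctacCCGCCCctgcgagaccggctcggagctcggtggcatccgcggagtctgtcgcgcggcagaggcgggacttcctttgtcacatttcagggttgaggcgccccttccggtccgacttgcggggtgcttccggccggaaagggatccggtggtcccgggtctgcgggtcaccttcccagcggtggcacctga
B4galt1, chr4:40853935-40854234, minus strand: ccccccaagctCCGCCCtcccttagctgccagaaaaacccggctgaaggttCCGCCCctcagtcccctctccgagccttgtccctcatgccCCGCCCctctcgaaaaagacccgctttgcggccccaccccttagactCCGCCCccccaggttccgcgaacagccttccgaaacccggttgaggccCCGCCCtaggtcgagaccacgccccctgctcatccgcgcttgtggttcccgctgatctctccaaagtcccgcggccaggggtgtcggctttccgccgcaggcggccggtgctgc
The start used is that of RefSeq; the GENCODE gene counted as Ugcg begins further upstream, at 59189257, so the whole Ugcg window lies inside it. The Ugcg window is 81.3% G and C, above 99.3% of all 32851 windows of this length, and holds 2 GC boxes, which begin 66 and 42 bases before the start. Gba2 has 1 and B4galt1 has 5. Of all windows 35.7% hold at least 1 such box on either strand. Searched on both strands, the TATA box TATAAA is in none of the 3 windows and in 13.6% of all. The letters CCAAT are likewise in none of the 3 and in 37.4% of all. The E-box CACGTG, also in none of the 3, is in 7.15% of all. All 300 bases of the Gba2 window lie within Rgp1, a gene on the opposite strand that encodes a Golgi trafficking factor, and 193 of them in its exons. These matches describe the sequences and do not show that a factor binds.

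Whether each row counts the gene it names needed a check, since over much of this table names and counts did not go together. All 4 genes lie on chromosome 4 between Rps20 and Prpf4 (3831334 to 62426990, GRCm38), a stretch over which, in earlier work on these data, names were taken to hold. Rows on it and on like stretches of chromosomes 6 and 15 are called readable here. Of the 5 nearest protein-coding genes on each side of the 4, 29 of 40 (72.5%) had a mean of at least 100 counts, against 55.7% of all protein-coding rows on the readable stretches and 15.2% of those elsewhere. Of the 10 neighbours of Ugcg, whose name had been held less certain, 8 reached 100 counts. Among them Dnajc25, a co-chaperone, had a mean of 1847 counts, Ptbp3, an RNA-binding protein, had 10371, and Hsdl2, a peroxisomal enzyme, had 14235. Shoc1, a meiosis gene directly before Ugcg, had 0.75. Well-filled rows nearby do not by themselves show that a name fits its counts. Moving the exons of a piece of the stretch along the chromosome and correlating the overlap with coding exons against the log count gave a best shift of 0 bp for the 625 rows from Rps20 to Mrpl50 (r = 0.669 across rows). For the 154 rows from Mrpl50 to Mup8, which include Ugcg, it gave -9550 bp (r = 0.657, against 0.62 with no shift). That distance is shorter than the Ugcg gene but longer than its 5212 bases of exons. Since counts come from exons, the scan does not settle the name of the Ugcg row. For the 50 rows from Mup9 to Prpf4, beyond Ugcg, the best shift was 943950 bp (r = 0.891, against 0.334 with no shift). The names thus fitted poorly from Mup9 on, where 5 of 23 protein-coding rows (21.7%) reached 100 counts. These rows, which lie beyond all 4 genes, are still among the readable ones and make up 5 of the 373 tested protein-coding genes used for ranks below. The split into these 3 pieces was chosen after the values were seen.

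**Figure D1:**
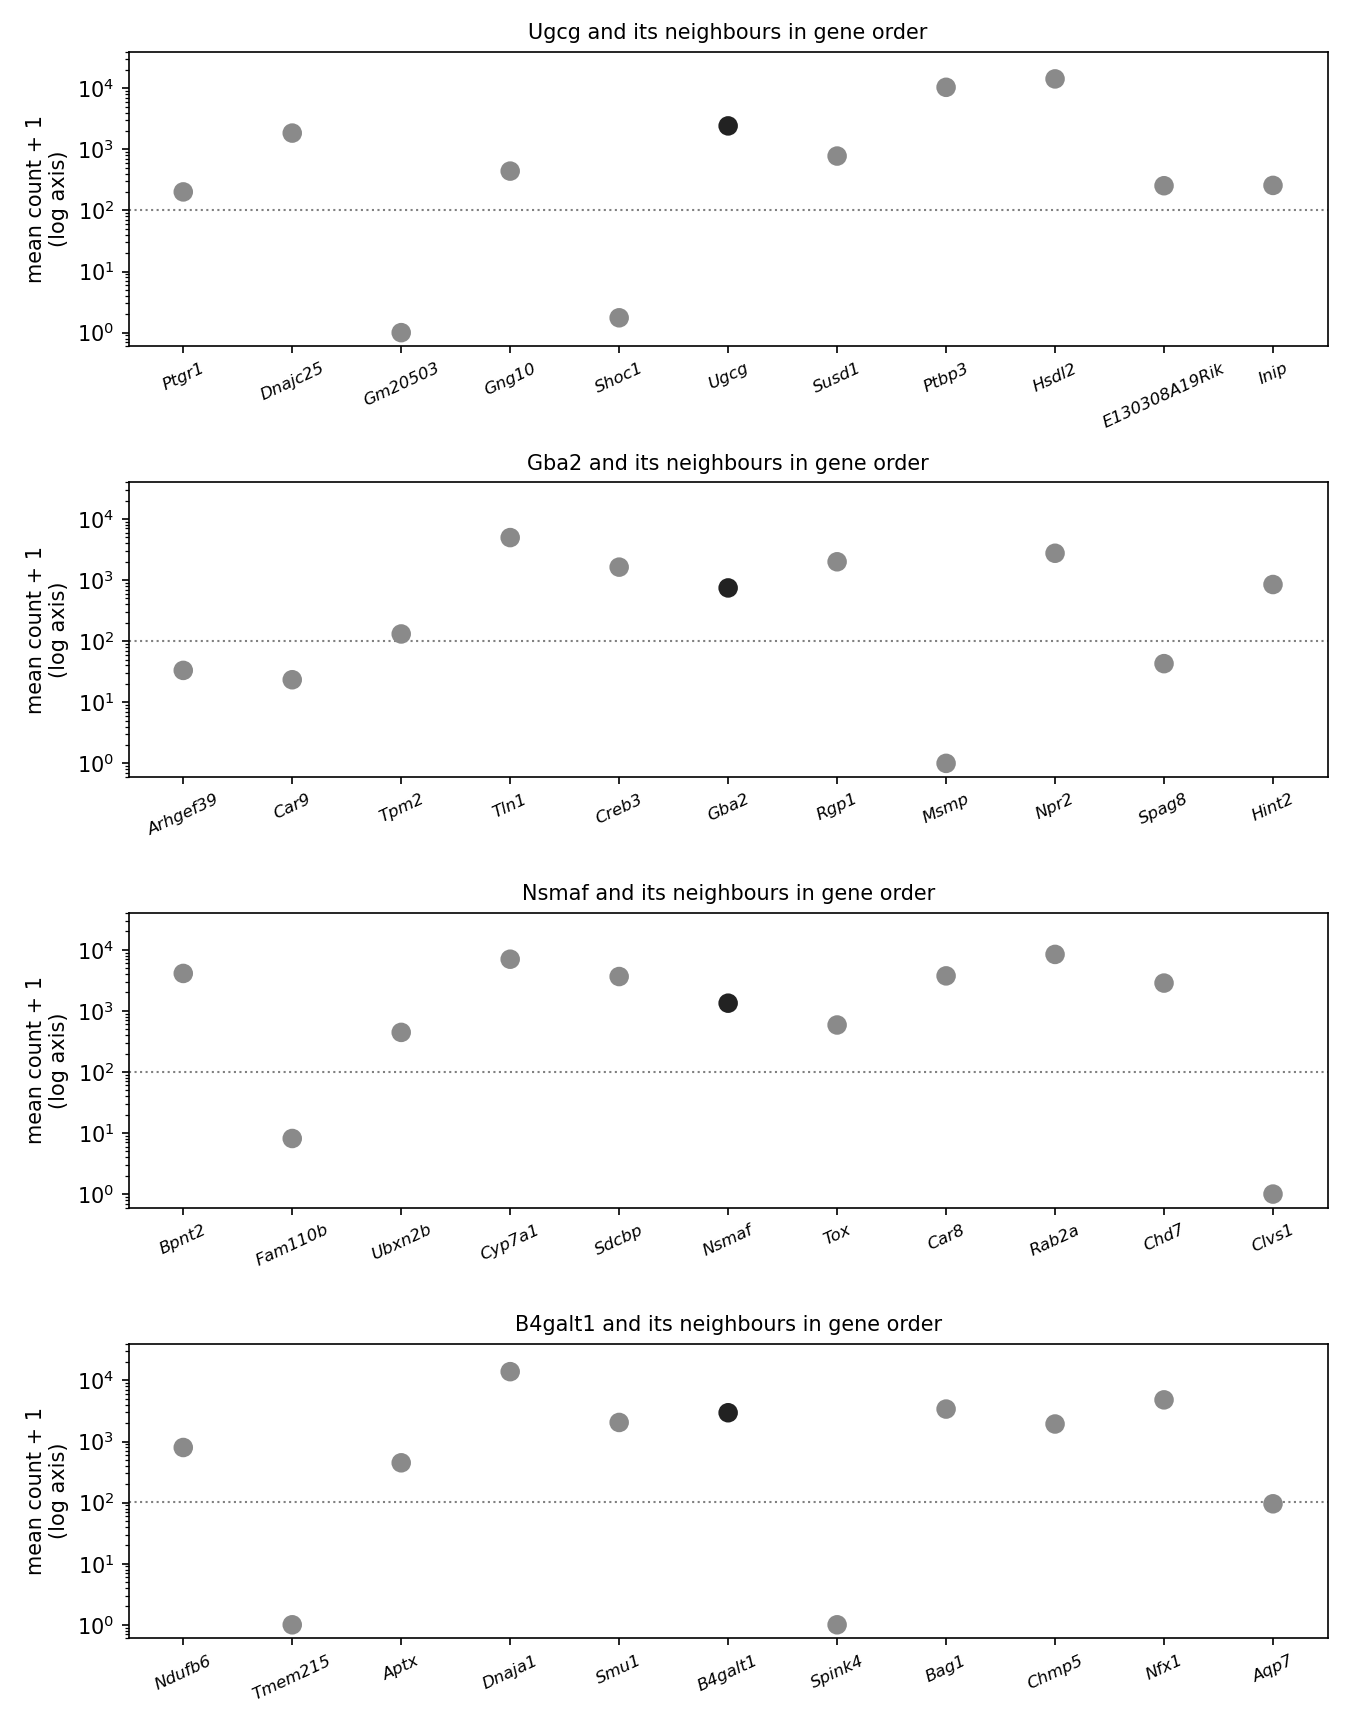
Mean count plus 1 over the 8 libraries (log axis) for each of the 4 genes (black) and the 5 nearest protein-coding genes on each side (grey) in gene order; the dotted line marks 100 counts. The Ugcg row, with a mean of 2422 counts, lies among other well-filled rows, and 8 of its 10 neighbours reach 100 counts.

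The libraries held 9578086 to 14613316 counts in SostPB/- and 9919069 to 14932773 in Sost-/- livers. Mitochondrial transcripts took 59.3% ± 3.92 of counts in SostPB/- and 51.9% ± 5.14 in Sost-/- (SD, n = 4 each). Levels are therefore given in CPM, a count divided by the TMM-scaled total of the tested rows in its library, and the fits were repeated on nuclear rows alone. Hepatocyte markers in readable rows were detected: Baat, which joins bile acids to taurine or glycine, had 440.5 ± 54.5 CPM in SostPB/- and 452 ± 82.2 CPM in Sost-/- livers, and Cyp7a1, which starts bile acid synthesis from cholesterol, had 674 ± 378 CPM in SostPB/- and 606 ± 268 CPM in Sost-/- livers (SD, n = 4 each). Col1a2, a collagen gene of stellate cells and fibroblasts, had 127 ± 25.6 CPM in SostPB/- and 108 ± 33.4 CPM in Sost-/-, and Pax5, of B cells, had 1.63 ± 1.00 and 1.35 ± 0.809 CPM in SostPB/- and Sost-/- (SD, n = 4 each). The part of cell makeup and of the mitochondrial share in the results was not tested. In whole liver, fewer cells of a type and less RNA per cell cannot be told apart.

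Ugcg (ENSMUSG00000028381.9, chromosome 4, 59189257 to 59222833, plus strand) had 216, 307, 183 and 162 CPM in SostPB/- replicates 1 to 4, against 217, 170.2, 219 and 214 CPM in Sost-/- replicates 1 to 4. SostPB/- replicate 2 was the highest of the 8 livers and SostPB/- replicate 4 the lowest, so the SostPB/- mice enclosed the whole range of the Sost-/- mice. The means were 217 ± 63.9 CPM in SostPB/- and 205 ± 23.3 CPM in Sost-/- (SD, n = 4 each), which gave 0.08 as log2 fold change (SE 0.21) and an adjusted p of 0.985 in edgeR. Without SostPB/- replicate 2 it was -0.13.

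Gba2 (ENSMUSG00000028467.16, chromosome 4, 43566928 to 43578873, minus strand) had 64.9, 48.05, 68.5 and 79.8 CPM in SostPB/- replicates 1 to 4, against 54.3, 85.2, 65.7 and 68.6 CPM in Sost-/- replicates 1 to 4. Here SostPB/- replicate 2, the highest for Ugcg, was the lowest, and Sost-/- replicate 2, the lowest of its group for Ugcg, was the highest. The means were 65.3 ± 13.1 CPM in SostPB/- and 68.4 ± 12.7 CPM in Sost-/- (SD, n = 4 each). On the log2 scale SostPB/- stood at -0.07 relative to Sost-/- (SE 0.20), with an edgeR adjusted p of 0.986. Leaving out SostPB/- replicate 2 gave 0.055 and leaving out Sost-/- replicate 2 gave 0.056.

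Exons of Gba2 overlap those of Rgp1 over 159 bases and those of Creb3, a membrane-bound transcription factor of the secretory pathway, over 133 bases, 3.55% and 2.97% of its exon length. Both genes lie on the opposite strand, and since the sources used here do not give the strand setting of the counting, reads from these ends cannot be assigned. Rgp1 had 172 ± 22.5 CPM in SostPB/- and 184 ± 30.1 CPM in Sost-/- (SD, n = 4 each; log2 fold change -0.09, SE 0.17). Creb3 had 128 ± 6.38 CPM in SostPB/- and 159 ± 21.1 CPM in Sost-/- (SD, n = 4 each; log2 fold change -0.31, SE 0.14), with an edgeR adjusted p of 0.785.

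B4galt1 (ENSMUSG00000028413.14, chromosome 4, 40804602 to 40854005, minus strand) had 226, 285, 256 and 264 CPM in SostPB/- replicates 1 to 4, against 244, 298, 207 and 313 CPM in Sost-/- replicates 1 to 4. All 4 SostPB/- livers lay within the Sost-/- range. The means were 258 ± 24.3 CPM in SostPB/- and 266 ± 49.0 CPM in Sost-/- (SD, n = 4 each). The log2 difference was -0.04 (SE 0.17), and edgeR gave an adjusted p of 0.989. The sign turned when SostPB/- replicate 1 (0.02), Sost-/- replicate 2 (0.019) or Sost-/- replicate 4 (0.048) was left out.

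Nsmaf (ENSMUSG00000028245.16, chromosome 4, 6396207 to 6454271, minus strand) had 113, 95.5, 127 and 123 CPM in SostPB/- replicates 1 to 4, against 109, 119, 134 and 132 CPM in Sost-/- replicates 1 to 4. It varied least of the 4 genes: its dispersion of 0.0358 was above that of 9.94% of the 332 readable protein-coding genes with a mean of at least 50 counts, while Ugcg, at 0.0567, was above 58.7%, Gba2, at 0.0519, above 53.6% and B4galt1, at 0.0422, above 30.7%. The means were 115 ± 14.2 CPM in SostPB/- and 124 ± 11.4 CPM in Sost-/- (SD, n = 4 each), and the log2 fold change was -0.11 (SE 0.15), at an adjusted p of 0.975 by edgeR. Its exons share 78 bases with Sdcbp, the scaffold protein syntenin, on the opposite strand, 0.932% of its exon length; Sdcbp had a log2 fold change of -0.11 (SE 0.14).

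**Figure D2:**
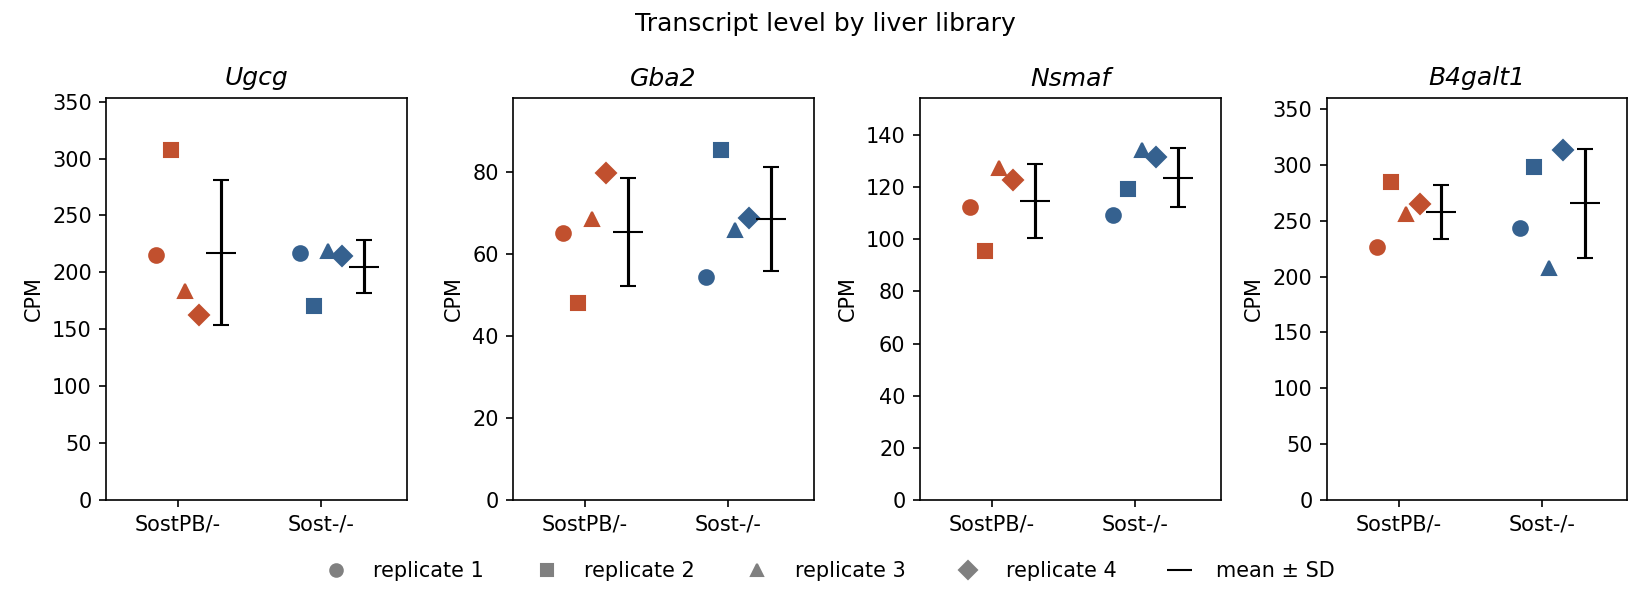
CPM of each gene in every library, SostPB/- (red) left of Sost-/- (blue), with the symbol giving the replicate number and the black bar the mean ± SD of 4 livers. The groups overlap in all 4 panels, and SostPB/- replicate 2 (square) is the highest liver for Ugcg at 307 CPM and the lowest for Gba2 at 48.05 CPM.

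Among the 10020 rows tested with edgeR, 0 passed the adjusted threshold and 646 (6.45%) had an unadjusted p under 0.05. DESeq2 called 53 of the 12666 rows to which it gave an adjusted p (0.418%) and limma-voom called 1, and the 4 genes were among neither.  With library totals in place of TMM scaling, the log2 fold changes were -0.11 for Ugcg, -0.27 for Gba2, -0.25 for B4galt1 and -0.32 for Nsmaf, and on nuclear rows alone they were 0.09, -0.06, -0.04 and -0.10 in the same order.

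Per length of annotated exons, the levels over all 8 livers ran in the order B4galt1, Ugcg, Gba2 and Nsmaf, at 61.8 ± 8.51, 40.5 ± 8.63, 14.9 ± 2.70 and 14.2 ± 1.54 CPM per kb (SD, n = 8). B4galt1 was above Ugcg, and Ugcg above Gba2, in 8 of 8 libraries. Gba2 and Nsmaf could not be ordered, since Gba2 was the higher in 4 of 8 libraries. Of the 373 readable protein-coding genes tested, 79.9% lay below B4galt1, 68.1% below Ugcg, 48.0% below Gba2 and 46.6% below Nsmaf.

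The ratio of Ugcg to Gba2 transcripts sets the enzyme that makes glucosylceramide beside one that removes it, and it needs no scaling between libraries. Per length, Ugcg exceeded Gba2 2.86, 5.50, 2.30 and 1.75 times in SostPB/- replicates 1 to 4, against 3.44, 1.72, 2.86 and 2.68 times in Sost-/- replicates 1 to 4. The lowest and highest livers of SostPB/- were thus about as far apart as the widest pair of all 8. On the log2 scale the ratio was 1.5 ± 0.704 in SostPB/- and 1.38 ± 0.424 in Sost-/- (SD, n = 4 each), a difference of 0.12 that is smaller than the spread within either group. Leaving out SostPB/- replicate 2 turned it to -0.20, and leaving out Sost-/- replicate 2 to -0.08.

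Ugcg and Gba2 were inversely related across the 8 livers. The relations between all 6 pairs of the 4 genes were computed on log2 CPM. For Ugcg and Gba2 Pearson's r was -0.906 (exact two-sided permutation test, p = 0.00146, adjusted over the 6 pairs p = 0.00878, n = 8) and Spearman's rho was -0.881 (exact permutation p = 0.00724, adjusted p = 0.0435). Without the 2 livers farthest from the Ugcg median, SostPB/- replicates 2 and 4, r was -0.782, and with the group means removed it was -0.906. With 4 livers each, no r is given for a genotype alone. Of the 331 readable protein-coding genes with a mean of at least 50 counts that were compared with Ugcg, Gba2 had the lowest r, where the median was -0.0862.

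Some limits bear on that relation. The name of the Ugcg row was not settled by the scan, so the relation is that of the row so named. The adjusted exact permutation p was 0.0798 without SostPB/- replicate 2 (r = -0.82) and 0.0762 without SostPB/- replicate 4 (r = -0.886). The libraries with the lowest Gba2, SostPB/- replicate 2 and Sost-/- replicate 1, were also the deepest, and without both r was -0.872 (exact permutation, adjusted p = 0.133, n = 6). The relation depended on the scaling. With the totals of nuclear rows r was -0.877 (exact permutation, adjusted p = 0.0107). With the size factors of the deposited normalized signal r was -0.913 (exact permutation, adjusted p = 0.00595). With all counts as the total r was -0.18 (exact permutation, adjusted p = 0.751). The mitochondrial share of each library enters that total, and its part in the relation was not tested further.

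**Figure D3:**
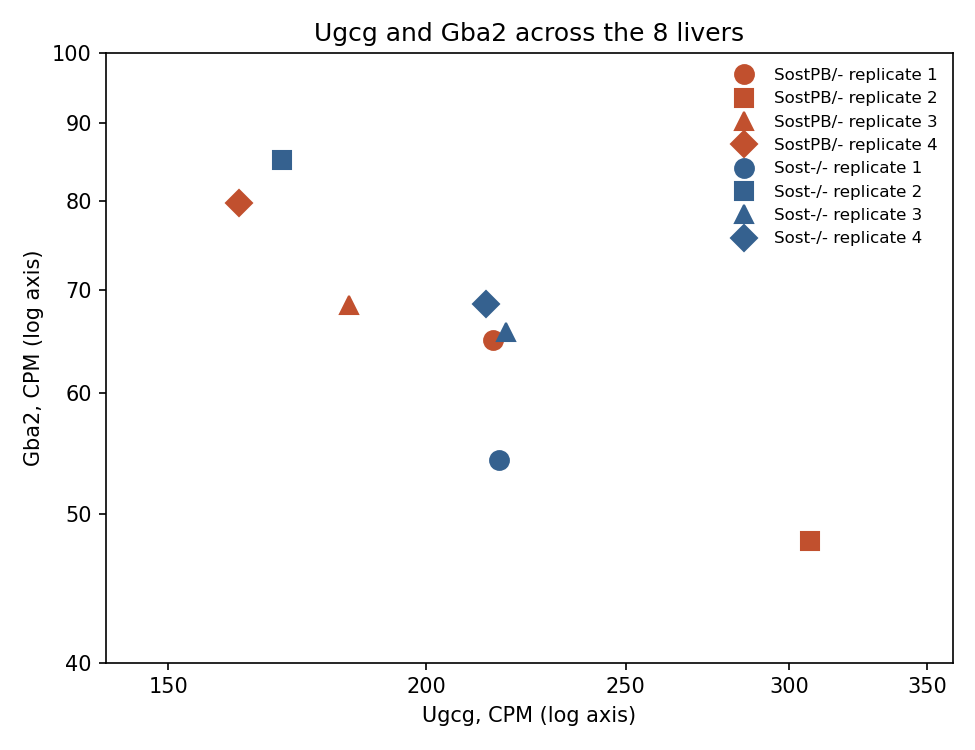
Gba2 against Ugcg in the 8 livers, both in CPM on log axes, SostPB/- in red and Sost-/- in blue, with the symbol giving the replicate. Gba2 is lower where Ugcg is higher (r = -0.906 on log2 values), with SostPB/- replicate 2 at the lower right of the plot and Sost-/- replicate 2 at the upper left.

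None of the other pairs passed. Gba2 and Nsmaf had r = 0.678 (exact permutation, adjusted p = 0.182) and rho = 0.548 (adjusted p = 0.513), with r = 0.531 without the 2 livers farthest from the Gba2 median. Ugcg and Nsmaf had r = -0.637 (exact permutation, adjusted p = 0.182) and rho = -0.286 (adjusted p = 0.601), and r was -0.036 without the 2 farthest livers. Without SostPB/- replicate 2 alone it was -0.0434 and without SostPB/- replicate 4 alone -0.667, so this value rested on SostPB/- replicate 2. B4galt1 had r between -0.141 and 0.175 with the other 3 genes.

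The readable genes whose levels followed each of the 4 most closely were found by Pearson's r of log2 CPM over the 8 libraries, the 3 highest among 331 each time. Being the highest of many, these values carry no test. Ugcg was followed by Hilpda, a lipid droplet protein that holds back fat breakdown (r = 0.868, rho = 0.881), by Rbm12b2, named for an RNA-binding motif (r = 0.757), and by the transcription factor Klf4 (r = 0.737). Hilpda varied widely, with 43.9 ± 29.9 CPM in SostPB/- and 41.8 ± 17.1 CPM in Sost-/- (SD, n = 4 each). Gba2 was followed by Smo, the signal transducer of the Hedgehog pathway (r = 0.917, rho = 0.905), by the B cell receptor partner Cd72 (r = 0.792) and by Dap (r = 0.775). Smo had 31.3 ± 8.61 CPM in SostPB/- and 30.3 ± 10.6 CPM in Sost-/- (SD, n = 4 each).

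Nsmaf was followed by Xpa, of nucleotide excision repair (r = 0.9, rho = 0.952), by Reck, an inhibitor of matrix metalloproteinases (r = 0.87), and by Otulin, a deubiquitinase of linear chains (r = 0.817). B4galt1 was followed by Tdrd7, a tudor domain protein of RNA granules (r = 0.872), by Cadps2, of vesicle exocytosis (r = 0.865), and by the tyrosine phosphatase Ptpn3 (r = 0.847). With the group means removed, the r of these 12 pairs lay between 0.758 and 0.941. The points of all pairs share the same 8 libraries and scaling factors. Klf4 and Ptpn3 lie, like Ugcg, between Mrpl50 and Mup8, where the best shift was -9550 bp, so their row names are also less certain.

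Of a list of 83 genes of sphingolipid metabolism and of its supply and control, 10 had readable rows: the 4 genes above and 6 that provide sugars or act on the Golgi and lysosome. The 6 were put on the list because they were thought to lie on readable stretches. Of the 77 core genes of the pathway, only the 4 were readable, so the values over the 10 do not sample the pathway. All 10 were tested and 0 passed in either direction, against 0% of all rows; 1 of the 10 had an unadjusted p under 0.05. Log2 fold changes were positive in 4 and negative in 6, with a median of -0.05 over the 10, of -0.05 over the 4 genes and of -0.01 over all rows tested. The other 73 genes, among them the serine palmitoyltransferase, ceramide synthase and sphingomyelinase genes, had rows outside the readable stretches. Of those rows 30 were tested and 0 passed, and no values are given for them, since their names could not be tied to their counts.

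Among the 6 suppliers and regulators, Gne and Nans had the lowest log2 fold changes. Gne, which makes the precursor of sialic acid, had 781, 808, 751 and 966 CPM in SostPB/- replicates 1 to 4, against 1108, 1098, 903 and 1100 CPM in Sost-/- replicates 1 to 4. SostPB/- replicate 4 and Sost-/- replicate 3 crossed, and the other 6 livers were apart. The means were 827 ± 95.9 CPM in SostPB/- and 1052 ± 99.8 CPM in Sost-/- (SD, n = 4 each), a log2 fold change of -0.35 (SE 0.14, unadjusted p = 0.033, edgeR adjusted p = 0.748). Leaving out any 1 of 6 of the 8 libraries put the unadjusted edgeR p at 0.0583 to 0.0792, and library totals alone gave a log2 fold change of -0.53. Nans, the next enzyme of that route, had 64.1, 60.3, 70.4 and 62.1 CPM in SostPB/- replicates 1 to 4, against 55.3, 81.4, 87.4 and 94.7 CPM in Sost-/- replicates 1 to 4. All but 1 of the Sost-/- livers lay above every SostPB/- liver, which gave -0.31 on the log2 scale (SE 0.18) and, by edgeR, an adjusted p of 0.9. Slc35a1, the Golgi carrier for activated sialic acid, had 123 ± 24.8 CPM in SostPB/- and 112 ± 25.3 CPM in Sost-/- (SD, n = 4 each; log2 fold change 0.14, SE 0.21).

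Laptm4b, a lysosomal membrane protein that binds ceramide, had 43.9, 41.2, 43.2 and 43.9 CPM in SostPB/- replicates 1 to 4, against 38.5, 40.8, 38.2 and 33.1 CPM in Sost-/- replicates 1 to 4. It was the 1 gene of the 10 whose groups did not overlap in either direction, against 3.92% of all tested rows. SostPB/- was the higher, as in 1.74% of all tested rows, and the gap between SostPB/- replicate 2 and Sost-/- replicate 2 was small. SostPB/- stood at 0.19 on the log2 scale (SE 0.14; adjusted p = 0.945 in edgeR). Golph3, a Golgi protein that retains glycosyltransferases, stood at 0.07 (SE 0.16) and Galt, the galactose enzyme of the Leloir pathway, at -0.06 (SE 0.17).

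**Figure D4:**
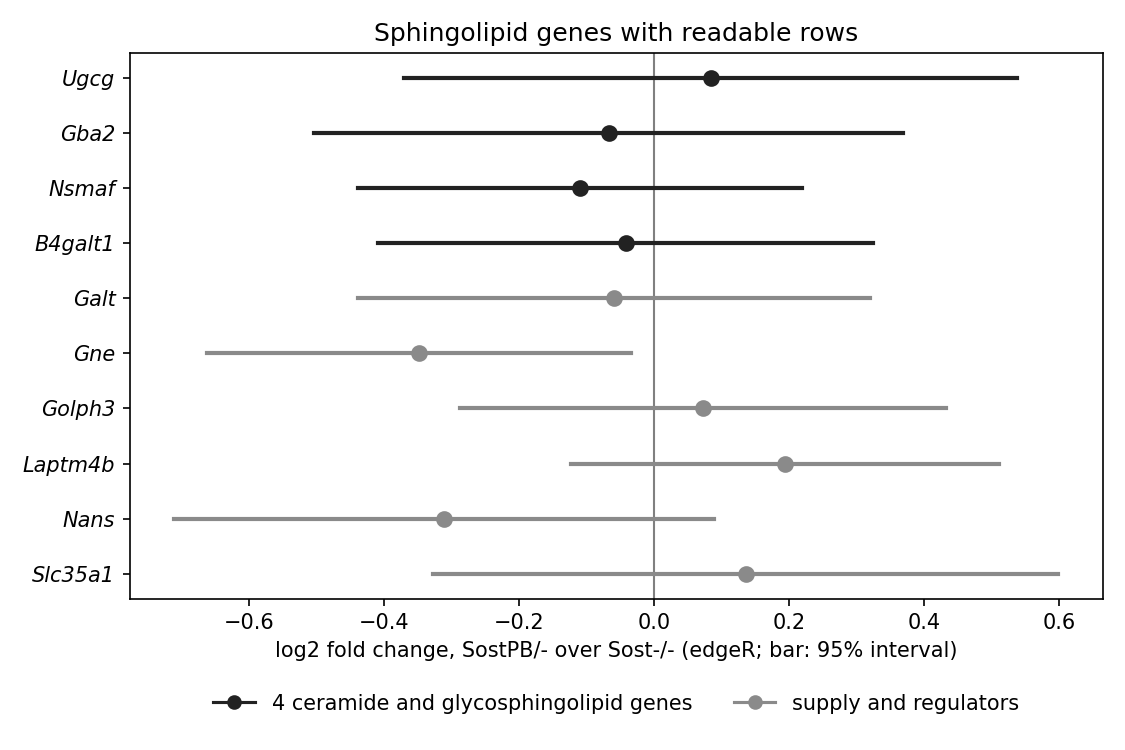
Log2 fold change of SostPB/- over Sost-/- livers with its 95% interval from edgeR for the 10 sphingolipid list genes with readable rows, the 4 ceramide and glycosphingolipid genes in black and the suppliers and regulators in grey. The intervals of all 4 black points cross 0, and that of Gne, from -0.66 to -0.03, is the only one of the 10 that does not, before adjustment for the rows tested.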

How the data were processed

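The authors deposited whole-number counts for 55416 gene rows and, for 22883 rows, also a normalized signal. Per the submitters' processing notes, mm10, HISAT2, StringTie and DESeq2 were used. Each signal column was the counts over 1 size factor, and 100% of recovered values were whole within 0.001; edgeR called 0 rows on them. Groups and replicate numbers came from the sample titles. Rows were placed by gene ID on GENCODE M21 (GRCm38); 52135 matched, 48133 of them with a version number 1 above. Readable stretches were taken from earlier work on these data.

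Counts were tested with edgeR 4.0.16 (R 4.3.3) for SostPB/- over Sost-/-: filterByExpr, TMM, glmQLFit, glmQLFTest, Benjamini-Hochberg adjustment over all rows at 0.05. Standard errors are the log2 fold change over the square root of F. DESeq2 1.42.0 and limma 3.58.1 were alternatives. Levels per kb use the union of M21 exons. Correlations used log2(CPM + 0.5) and exact permutation. Nothing in the labels says more than that replicates are biological. The 4 genes, the lists and the stretches were chosen with earlier results of these data known. The text names the 4 genes, readable list genes, neighbours by position, and the 3 closest genes by r. Scripts were tested on simulated data. Some marker results are not reported here.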

Additional observations from a re-analysis of the deposited data

Results flagged for a closer look

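In 28 sets of 4 values, the highest or lowest library was compared with the nearest other by its gap over the group's range, and 5 stood apart, where chance gives about 1 in 20. Sost-/- replicate 2 was low in Ugcg, at 170.2 CPM against 214 to 219 CPM in the rest of its group, and high in Galt, at 187 CPM against 141 to 146 CPM. Sost-/- replicate 3 was low in Gne, at 903 CPM against 1098 to 1108 CPM. By total counts SostPB/- replicate 2, with 14613316 against at most 10412498 in its group, and Sost-/- replicate 1, with 14932773 against at most 10554376, were the deepest libraries.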

How the results depend on the processing

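Over 76 refits of the 4 genes (19 settings each) 0 passed the threshold and the lowest adjusted p was 0.725. Among the 19 settings, the counts recovered from the normalized signal gave the same values as the main fit and so add no separate check. Nsmaf kept its sign in all 19. Ugcg was at -0.11 with library totals alone. Leaving out 1 library at a time gave -0.13 to 0.20 for Ugcg, -0.18 to 0.056 for Gba2, -0.14 to 0.048 for B4galt1 and -0.17 to -0.03 for Nsmaf. Rows called numbered 2 with no filter, 1 with a mean of at least 50 counts, 53 in DESeq2 and 1 in limma-voom, and 0 to 4 without 1 library. No setting called a readable list gene, and the Ugcg to Gba2 difference lay between -0.20 and 0.35 without 1 library.

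With replicate number as a block, the unadjusted p of Gne was 0.0546, 0 rows were called and the values were 0.04, -0.07, -0.03 and -0.11 for Ugcg, Gba2, B4galt1 and Nsmaf. Same-numbered livers did not clearly deviate together (r from -0.067 to 0.0508 over rows), and 1 of 4 pairs matched best both ways. A weak effect of pairing would give like values, so whether the numbers pair the mice cannot be told. The Ugcg and Gba2 r was -0.96 to -0.82 without 1 library, -0.872 without the 2 deepest and -0.18 with library totals alone. With library totals alone r turned to 0.129 for Ugcg and Nsmaf, 0.325 for Ugcg and B4galt1 and 0.533 for Nsmaf and B4galt1. Without the 2 deepest libraries it turned to 0.243 for Ugcg and Nsmaf, -0.241 for Gba2 and Nsmaf and 0.0204 for Nsmaf and B4galt1. Without 1 library r ran from -0.77 to -0.0434 for Ugcg and Nsmaf, -0.447 to 0.143 for Ugcg and B4galt1, 0.322 to 0.798 for Gba2 and Nsmaf, -0.0658 to 0.51 for Gba2 and B4galt1 and -0.444 to 0.219 for Nsmaf and B4galt1. The totals include mitochondrial counts, and the cause of these changes in r was not tested. Without the tested rows from Mup9 on, the shares of genes below each of the 4 in level were 46.5% to 79.9% of 368. Replicates were taken as 4 mice per group, and the depth behind the 4 genes was 589 to 4149 counts per library.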
